A study of Danio rerio with 6 samples.

Results

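Integrin genes were examined in macrophages sorted from zebrafish (Danio rerio) larvae with and without a mutation in the chemokine receptor gene cxcr3.2. Members were all genes whose symbol, looked up from the Ensembl ID, began with itga or itgb in either case, without the genes of the proteins that bind the integrin beta chains 1 and 3. The rule gave 35 genes of 31962 in the files, and all 35 had at least 1 read. They were divided by textbook role into 7 leukocyte genes, 22 matrix-binding genes and 5 epithelial genes, and the last, ITGBL1, encodes an integrin-beta-like protein that is not a receptor chain. Several members share a symbol and are given with their ID. RNA of red fluorescent cells was sequenced in 6 libraries, 3 of cxcr3.2-/- larvae (called mutant) and 3 of cxcr3.2+/+ larvae (called wild type), each from its own pool of 150 to 200 larvae. Both groups carried the mpeg1:mCherryF reporter, in which the promoter of the macrophage gene mpeg1 drives a red fluorescent protein. No treatment is named, and for the age the labels hold 2 entries, 6 days and 5 days after fertilisation.

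Integrins are cell surface receptors made of an alpha and a beta chain. The alpha chain largely sets which ligand is bound, and the tails of the chains link matrix or a neighbouring cell to actin through talin and kindlin. In mammals, macrophages use the beta chain encoded by ITGB2 with alpha chains such as that of ITGAM for firm adhesion and uptake of complement-coated particles. The beta chain of ITGB7 pairs with the chains of ITGA4 and ITGAE, which bind vascular adhesion molecules and E-cadherin. The chains of ITGAV and ITGA5 bind fibronectin and related proteins, and those of ITGA6 and ITGB4 anchor basal epidermal cells.

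Levels are CPM, read counts brought to a common library size, after scaling by TMM, which limits the weight of a few very abundant genes. They are not divided by gene length, so that they are compared between libraries and not between genes. Fold changes are mutant over wild type, and means are given ± SD over 3 libraries per genotype. Total counts ranged from 6239470 to 9607009 per library. Macrophage markers were present in every library: ptprc, the leukocyte phosphatase CD45, measured 190 to 292 CPM, and the macrophage list of 21 genes summed to 6251 to 7697 CPM in wild type and to 9988 to 10292 CPM in mutant libraries. The sum includes apoeb, a lipid carrier gene, at 2075 to 2858 CPM in wild type and 4692 to 5551 CPM in mutant libraries, whereas 13 of the 21 genes had a negative log2 fold change (median −0.16). Of these, MPEG1 ENSDARG00000043093, a perforin gene, IRF8, a macrophage transcription factor gene, and csf1rb, a growth factor receptor gene, had log2 fold changes of −1.26, −0.81 and −0.74 without overlap between the genotypes, and none of the 3 passed edgeR's test over all genes (adjusted p = 0.0904, 0.173 and 0.301), although DESeq2 called MPEG1 lower (adjusted p = 0.0015). Scaled by total count instead of TMM, csf1rb overlapped between the genotypes. apoeb and SPI1, a myeloid transcription factor gene, passed edgeR's test as higher (adjusted p = 0.00983 and 0.0487). Without overlap, SLC7A7, CORO1A and LCP1 were also higher (log2 fold changes 0.55, 0.45 and 0.46, adjusted p = 0.101, 0.143 and 0.174 in edgeR). In all, 8 of the 21 genes did not overlap after TMM, beside 20.6% of all tested genes. DESeq2 called 4 of the 21 higher and 1 lower, beside 4.99% of all genes. A further gene named MPEG1, ENSDARG00000055290, averaged 336 CPM in wild type against 300 CPM in mutant libraries, which overlapped (log2 fold change −0.16). Epidermal markers were not absent: 34 genes summed to 7125 to 7938 CPM in wild type and to 6444 to 6996 CPM in mutant libraries, but as a share of all counts they held 0.601% to 0.734% and 0.71% to 0.753%, which overlapped and turned the order of the genotypes. Heat shock genes held 11.6% to 23.1% of counts in wild type and 3.67% to 4.03% in mutant libraries. Muscle markers summed to 1497 CPM in mutant library 2 and to 103 to 163 CPM in the others. Scaling by total count instead of TMM moved the median log2 fold change of all genes by 0.27. Total counts include the heat shock genes, and removing these genes before TMM moved the median by 0.0076. In bulk RNA of sorted pools, fewer cells of a type and less RNA per cell cannot be told apart.

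No integrin gene passed the test between the genotypes. Of the 35 members, 28 had enough counts to be tested, and none was called with a threshold of 0.05 on the adjusted p (quasi-likelihood test in edgeR, adjusted by Benjamini-Hochberg over 16499 genes). Of all tested genes, 1.19% were called, 0.309% as higher and 0.885% as lower in the mutant. At an unadjusted p of 0.05, 2 members were higher and 3 lower, that is 5 of 28, beside 14.2% of all tested genes (7.04% higher and 7.17% lower). DESeq2 called 1 member, itgae.1, which was lower, beside 4.99% of all genes to which it gave an adjusted p. For 3 members the TMM-scaled libraries of the genotypes did not overlap, namely itgae.2, itgae.1 and 1 of the ITGB1 copies, beside 20.6% of all tested genes. The first was higher in the mutant, as for 10.2% of all tested genes, and the others lower, as for 10.4%. Of the 28 members, 20 had a negative log2 fold change, against 52.1% of all tested genes, and their median was −0.40 against −0.03. Under total count scaling 15 of 28 were negative and the median was −0.13, while the median of all genes was 0.24.

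**Figure D1:**
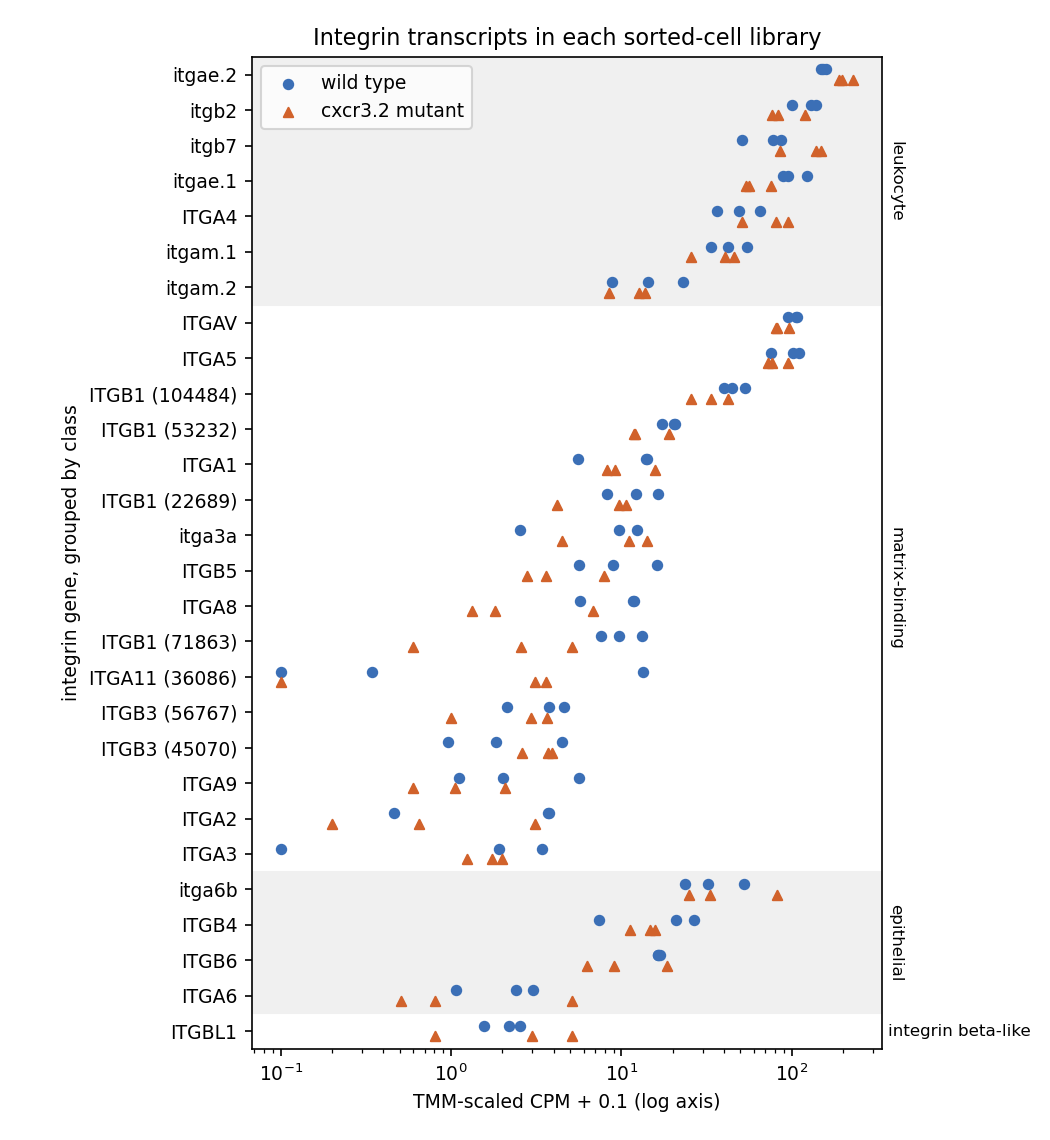
TMM-scaled CPM plus 0.1 on a log axis for the 28 tested integrin genes, with 1 point per library (circles wild type, triangles mutant). Genes are sorted within each class, levels are not divided by gene length, and numbers in brackets are the last digits of the Ensembl ID. The genotypes separate without overlap in itgae.2, itgae.1 and the lowest plotted ITGB1 copy, ENSDARG00000071863.

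Among leukocyte chains, the numbered copies itgae.1 and itgae.2, named for the alpha chain that binds E-cadherin in mammals, had opposite signs. The itgae.2 gene (ENSDARG00000057787) measured 152, 149 and 158 CPM in wild type libraries 1 to 3 and 198, 189 and 230 CPM in mutant libraries 1 to 3. Every mutant library was above every wild type library. In edgeR the log2 fold change was 0.43 (SE 0.14, 95% interval 0.11 to 0.74, adjusted p = 0.205). Over the alternatives the adjusted p of itgae.2 ranged from 0.0517, with DESeq2, to 0.384. The itgae.1 gene (ENSDARG00000098012) measured 95.3, 122 and 88.4 CPM in wild type and 53.5, 75.6 and 56.1 CPM in mutant libraries. Here every mutant library was below every wild type library. The difference was −0.72 on the log2 scale (SE 0.21, 95% interval −1.19 to −0.26). The adjusted p was 0.149 in edgeR and 0.0342 in DESeq2, the only alternative of 13 that called it, in a range of 0.0342 to 0.384.

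The sum of both itgae copies differed between the genotypes by less than the spread between replicates. Together they measured 248, 271 and 246 CPM in wild type and 252, 265 and 286 CPM in mutant libraries, and these ranges overlapped. With the counts of both added before the fit, the log2 fold change was 0.07 (SE 0.13, 95% interval −0.22 to 0.35, adjusted p = 0.879, edgeR). Reads of itgae.2 per read of itgae.1 numbered 1.6, 1.22 and 1.79 in wild type and 3.7, 2.51 and 4.1 in mutant libraries. The ratio, which does not depend on the scaling of the libraries, was 2.22-fold higher in the mutant, and without any 1 library its log2 difference ranged from 0.99 to 1.36. An exact two-sided permutation test gave p = 0.1, the smallest value possible with 3 libraries against 3. As itgae.2 was higher and itgae.1 lower in every mutant library, the ratio had to separate the genotypes. This p was therefore fixed by the levels above and adds no support to them. In the RefSeq annotation of another assembly, GRCz12tu, itgae.1 and itgae.2 lie on 1 chromosome with 1 coding gene between them. How the authors' counting treated reads that match both copies is not given in the sources used here, so the level of each copy is less certain than their sum.

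The beta chains of leukocyte integrins also had opposite signs. The itgb7 gene (ENSDARG00000044318), the mammalian partner of the ITGAE and ITGA4 chains, measured 50.7, 86.3 and 77.7 CPM in wild type and 138, 149 and 85.3 CPM in mutant libraries. Mutant library 3 lay just below wild type library 2, and the other mutant libraries were above all wild type libraries. Scaled by total count, every mutant library was above every wild type library. On the log2 scale the difference was 0.80 (SE 0.27, 95% interval 0.19 to 1.40, adjusted p = 0.225, edgeR). The adjusted p of itgb7 ranged from 0.055, with DESeq2, to 0.437 over the alternatives.

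The itgb2 gene (ENSDARG00000016939), whose human counterpart is mutated in leukocyte adhesion deficiency, measured 130, 139 and 99.8 CPM in wild type and 83.1, 120 and 76.6 CPM in mutant libraries. The genotypes overlapped through wild type library 3 and mutant library 2. This gave a log2 fold change of −0.40 (SE 0.22, 95% interval −0.90 to 0.09, adjusted p = 0.464, edgeR). Reads of itgb7 per read of itgb2 numbered 0.389, 0.62 and 0.778 in wild type and 1.66, 1.24 and 1.11 in mutant libraries. No mutant library fell within the wild type range of this ratio, which was 2.31-fold higher in the mutant (exact two-sided permutation p = 0.1, the smallest possible; log2 difference 0.93 to 1.43 without any 1 library). The log2 ratio averaged −0.80 ± 0.51 in wild type and 0.40 ± 0.30 in mutant libraries. This ratio was formed after the levels of both genes, with their opposite signs, were seen. Its p therefore adds no support to those levels.

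**Figure D2:**
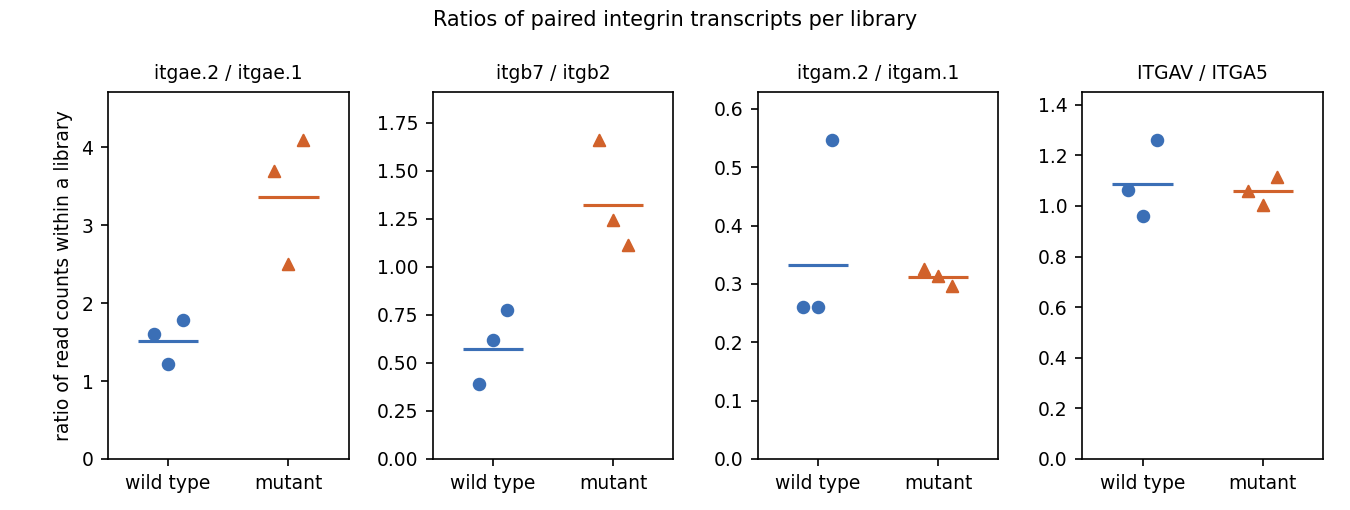
Ratio of read counts of 2 integrin genes within each library (circles wild type, triangles mutant), with geometric means as lines and axes from 0. The ratios of itgae.2 to itgae.1 and of itgb7 to itgb2 separate the genotypes, whereas those of itgam.2 to itgam.1 and of ITGAV to ITGA5 overlap. The first ratio had to separate them, since each of its genes does so in opposite directions. All ratios were chosen after the levels were seen.

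Of the remaining leukocyte alpha chains, ITGA4 (ENSDARG00000103056), which in mammals serves adhesion to vascular cells and fibronectin, measured 48.9, 65 and 36.6 CPM in wild type and 80.9, 51.2 and 95.5 CPM in mutant libraries. Mutant library 2 lay within the wild type range, whereas scaled by total count it lay just above that range. The log2 fold change of ITGA4 was 0.60 (SE 0.29, 95% interval −0.05 to 1.25, adjusted p = 0.398, edgeR). The copies itgam.1 and itgam.2, named for the alpha chain of the complement receptor CR3, overlapped between the genotypes. The itgam.1 gene (ENSDARG00000002956) measured 33.6, 54.9 and 42.1 CPM in wild type and 25.6, 40.3 and 45.8 CPM in mutant libraries (log2 fold change −0.23, SE 0.28, adjusted p = 0.807). The itgam.2 gene measured 15.3 ± 7.22 CPM in wild type against 11.5 ± 2.81 CPM in mutant libraries (log2 fold change −0.41, SE 0.40, adjusted p = 0.738). Reads of itgam.2 per read of itgam.1 numbered 0.26, 0.26 and 0.547 in wild type and 0.325, 0.313 and 0.297 in mutant libraries (exact permutation p = 1), so that the only outlying value was that of wild type library 3. The 4 ratios, these 3 and that of ITGAV to ITGA5, were chosen after the levels were seen, and adjusted over the 4 the smallest p was 0.2.

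The 7 leukocyte genes summed to 520, 631 and 526 CPM in wild type and to 587, 638 and 603 CPM in mutant libraries, which overlapped. Scaled by total count, the sums were 486 to 522 CPM in wild type and 649 to 685 CPM in mutant libraries, which did not overlap. Of these genes, 3 had a positive and 4 a negative log2 fold change with a median of −0.23, whereas by total count 4 were positive and 3 negative with a median of 0.059. With the heat shock genes removed before TMM, 3 were positive and 4 negative (median −0.22). Neutrophils also carry leukocyte integrins, and a neutrophil list of 10 genes summed to 1228 to 1737 CPM in wild type and to 1475 to 2682 CPM in mutant libraries. The sum includes MMP9 at 461 to 722 CPM in wild type and 719 to 1143 CPM in mutant libraries. It also includes srgn at 391 to 466 CPM and 381 to 529 CPM, and mmp13a at 161 to 194 CPM and 177 to 402 CPM. All 8 tested genes of the list overlapped between the genotypes, and none was called. Of the 8, 7 had a positive and 1 a negative log2 fold change (median 0.54), beside 52.1% negative among all tested genes. At an unadjusted p of 0.05 in edgeR there were 2 of 8, beside 14.2% of all tested genes. The sums of mutant libraries 1 and 2, 2367 and 2682 CPM, lay above all wild type sums. Most of the sum of mutant library 1 was MMP9 (1143 CPM), srgn (472 CPM) and mmp13a (402 CPM). The highest sum was that of mutant library 2, in which lyz, a lysozyme gene, measured 668 CPM against 31.6 to 232 CPM elsewhere. The part of these cells, and of the macrophage list, whose genes differed in both directions, in the leukocyte integrin values was not tested.

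Matrix-binding chains had more negative than positive signs, 14 against 2 of 16 tested, beside 52.1% negative among all tested genes. The 14 include the 4 genes named ITGB1, which may share reads. Under total count scaling, in which the heat shock genes count, the signs became 10 against 6. With the heat shock genes removed before TMM they stayed 14 against 2 (median −0.46). The median log2 fold change of the class was −0.46, and −0.21 by total count, against −0.03 and 0.24 for all tested genes. The 22 genes summed to 338, 388 and 312 CPM in wild type and to 238, 286 and 283 CPM in mutant libraries, so that all mutant sums lay below all wild type sums. This separation depended on the scaling: by total count the sums were 288 to 330 CPM in wild type and 263 to 311 CPM in mutant libraries, which overlapped. The fibronectin receptor chain gene ITGA5 (ENSDARG00000006353) measured 101, 110 and 75.4 CPM in wild type and 77, 95.6 and 72.5 CPM in mutant libraries. Its log2 fold change was −0.23 (SE 0.20, adjusted p = 0.696) and turned to 0.041 by total count. The ITGAV gene (ENSDARG00000006314), whose product binds vitronectin and latent TGF-beta and takes part in the uptake of dead cells, measured 108, 106 and 95.2 CPM in wild type and 81.5, 95.9 and 80.7 CPM in mutant libraries. The genotypes touched only between wild type library 3 and mutant library 2. The log2 fold change of ITGAV was −0.26 (SE 0.16, 95% interval −0.62 to 0.10, adjusted p = 0.523), and 0.0051 by total count. The 3 mutant libraries held 1.06, 1 and 1.11 reads of ITGAV per read of ITGA5, and the wild type libraries 1.06, 0.962 and 1.26.

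All 4 genes named ITGB1, the beta chain shared by most matrix receptors, had a negative log2 fold change. The copy ENSDARG00000104484 measured 44.3, 52.9 and 39.7 CPM in wild type and 25.5, 33.6 and 42 CPM in mutant libraries (log2 fold change −0.44, SE 0.24, adjusted p = 0.482). Mutant library 3 lay within the wild type range. The copy ITGB1 ENSDARG00000071863 measured 9.58, 13.1 and 7.45 CPM in wild type and 0.501, 2.47 and 5.01 CPM in mutant libraries. These did not overlap, and rested on 79, 91 and 43 reads against 5, 18 and 53. The log2 fold change of this copy was −1.91 (SE 0.70, 95% interval −3.50 to −0.31, adjusted p = 0.264). Its mutant libraries ranged from 0.501 to 5.01 CPM, and only 2 of them reached the level that the count filter asks for, against all 3 wild type libraries.

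The other ITGB1 copies overlapped between the genotypes. ENSDARG00000053232 measured 19.4 ± 1.78 CPM in wild type against 14.2 ± 4.08 CPM in mutant libraries (log2 fold change −0.45, adjusted p = 0.561), and ENSDARG00000022689 measured 12.2 ± 4.08 CPM and 8.11 ± 3.49 CPM (log2 fold change −0.58, adjusted p = 0.65). The 4 copies summed to 82.4, 103 and 76.6 CPM in wild type and to 47.3, 52.1 and 76.5 CPM in mutant libraries. Mutant library 3 lay just below the lowest wild type library. This order depended on TMM: scaled by total count, mutant library 3 was above that wild type library. With the counts of the copies added before the fit, the log2 fold change was −0.57 (SE 0.23, 95% interval −1.09 to −0.06, adjusted p = 0.302, edgeR). RefSeq lists 3 itgb1b genes as direct neighbours in GRCz12tu, but which of the 4 IDs these are was not determined, and reads shared by copies may have been assigned to any of them.

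The ITGA8 gene (ENSDARG00000078717), an alpha chain of mesenchymal and smooth muscle cells in mammals, measured 11.8, 5.62 and 11.6 CPM in wild type and 6.71, 1.23 and 1.7 CPM in mutant libraries. Mutant library 1 was above wild type library 2. For ITGA8 the log2 fold change was −1.57 (SE 0.67, 95% interval −3.10 to −0.04, unadjusted p = 0.0449, adjusted p = 0.338, edgeR). The vitronectin receptor gene ITGB5 measured 10.2 ± 5.42 CPM in wild type against 4.67 ± 2.75 CPM in mutant libraries (log2 fold change −1.13, SE 0.56, adjusted p = 0.411). The collagen receptor gene ITGA1 measured 11.1 ± 4.93 CPM and 10.9 ± 4.14 CPM, and the laminin receptor gene itga3a 8.07 ± 5.07 CPM and 9.82 ± 4.94 CPM.

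The remaining tested matrix genes, ITGB3 (2 copies), ITGA9, ITGA2, ITGA3 and 1 copy of ITGA11, averaged under 5 CPM in either genotype and did not pass the test. Of these, ITGA11 ENSDARG00000036086, a collagen receptor gene of mesenchymal cells in mammals, had 77 reads in wild type library 3 and 30 and 37 reads in mutant libraries 1 and 3, with 0 to 2 reads in the other libraries. The copies of ITGB3, the beta chain of platelet and osteoclast receptors, had opposite signs (−0.48 for ENSDARG00000056767 and 0.49 for ENSDARG00000045070), and their sum gave a log2 fold change of 0.00 (95% interval −1.17 to 1.18, adjusted p = 1.0). The ITGBL1 gene measured 1.99 ± 0.503 CPM in wild type against 2.86 ± 2.15 CPM in mutant libraries.

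**Figure D3:**
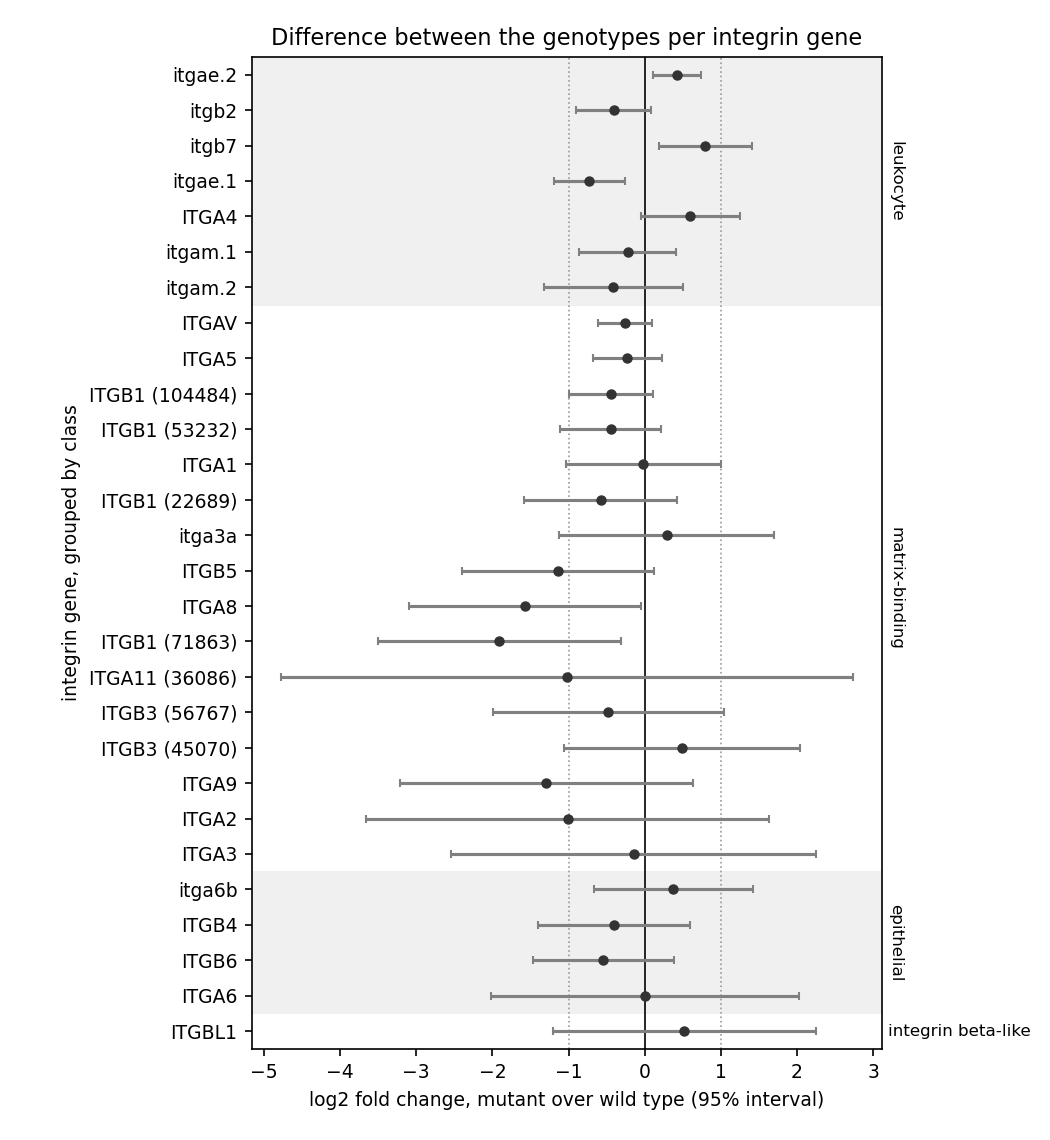
Log2 fold change of mutant over wild type with its 95% interval for the 28 tested integrin genes by class (edgeR). Dotted lines mark 2-fold differences. The matrix-binding class lies mostly left of 0 (14 of 16 genes, beside 52.1% of all tested genes). Under total count scaling 10 of 16 are negative, with a class median of −0.21 against 0.24 for all tested genes. The leukocyte class lies on both sides, and the intervals of 6 genes lie wholly within 2-fold either way.

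Epithelial chains were measurable in the sorted pools. The itga6b gene (ENSDARG00000069946), an alpha chain of laminin receptors and hemidesmosomes, measured 32.2, 23.5 and 52.7 CPM in wild type and 33.2, 25 and 81.8 CPM in mutant libraries. Mutant library 3 was the highest of all 6, and the genotypes overlapped. Its log2 fold change of 0.37 (SE 0.46, adjusted p = 0.802, edgeR) turned to −0.30 without that library. The hemidesmosome beta chain gene ITGB4 (ENSDARG00000028507) measured 20.9, 26.7 and 7.28 CPM in wild type and 14.6, 11.1 and 15.7 CPM in mutant libraries (log2 fold change −0.41, SE 0.44, adjusted p = 0.77). Its lowest value was that of wild type library 3, in which itga6b was highest among the wild type libraries.

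The ITGB6 gene (ENSDARG00000002494), a beta chain of epithelia that activates TGF-beta in mammals, measured 16.2, 16.3 and 16.8 CPM in wild type and 18.5, 6.17 and 8.98 CPM in mutant libraries. The wild type libraries agreed within 1 CPM, and the mutant libraries lay on both sides of them (log2 fold change −0.54, SE 0.41, adjusted p = 0.64). ITGA6 (ENSDARG00000042282) measured 0.97, 2.31 and 2.95 CPM in wild type and 0.702, 0.411 and 5.01 CPM in mutant libraries. Like itga6b, ITGA6 and the untested itga6l were highest in mutant library 3, with 53 and 30 reads. The 5 genes summed to 73.5 ± 5.4 CPM in wild type libraries and to 67.4, 43.5 and 114 CPM in mutant libraries. The sum and the itga6 genes were highest in mutant library 3, whereas ITGB4 was highest in wild type library 2 and ITGB6 in mutant library 1. In mutant library 3 the epidermal list was at 6444 CPM, the lowest of the 6 TMM-scaled sums. As a share of all counts it was at 0.71%, within the wild type range of 0.601% to 0.734%.

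**Figure D4:**
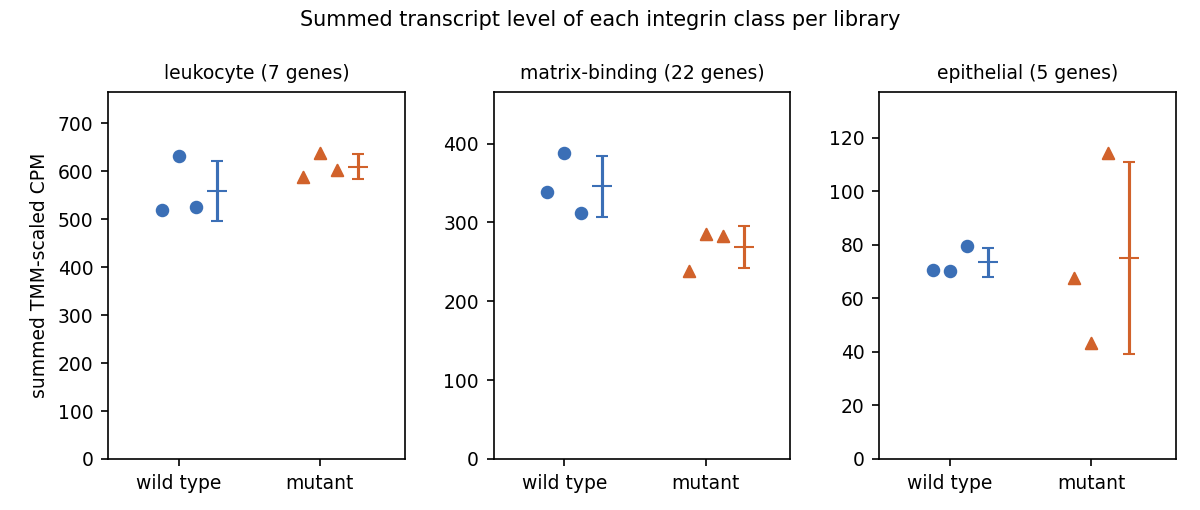
Summed TMM-scaled CPM of each integrin class in each library (circles wild type, triangles mutant), with mean and SD over 3 libraries beside the points and axes from 0. Matrix-binding sums are 312 to 388 CPM in wild type and 238 to 286 CPM in mutant libraries, while the other classes overlap; scaled by total count, matrix-binding sums overlap and leukocyte sums do not.

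Of the 7 members with too few reads to be tested, 6 were matrix receptor genes and the other was itga6l. The thrombocyte gene itga2b, whose mammalian product with the ITGB3 chain binds fibrinogen on platelets, had 15 reads in wild type library 2 and 0 in the other 5, where 0 reads allow up to 0.283 to 0.52 CPM, counting error only. The thrombocyte marker mpl, the thrombopoietin receptor, measured 0.727 to 3.29 CPM in wild type and 0.301 to 1.92 CPM in mutant libraries. The untested gp9 measured 1.21 to 2.74 CPM and 0 to 0.702 CPM, and GP1BB 4 to 4.51 CPM and 1.37 to 1.98 CPM. GP1BB had a log2 fold change of −1.32 (adjusted p = 0.302, edgeR). Of the 7 tested genes of their list, 2 had a positive and 5 a negative sign, and none was called. Only GP1BB of the 7 did not overlap, beside 20.6% of all tested genes. The list of 11 genes summed to 285 to 324 CPM in wild type and to 229 to 333 CPM in mutant libraries. Most of this sum was PLEK, at 196 to 228 CPM in wild type and 137 to 197 CPM in mutant libraries. ITGA10 had 53 reads in all, ITGB8 30, itga2.3 26, itga2.1 3 and ITGA11 ENSDARG00000007950 7 reads. Of these, ITGA10 and itga2.3 had the most reads in wild type library 2, with 27 and 9, and the 3 reads of itga2.1 were all from that library.

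Of 55 tested genes that link integrins to actin and to signalling, none passed in either direction over all genes tested, beside 1.19% of all tested genes. Their median log2 fold change was −0.03, the same as that of all genes. The list of 58 genes summed to 1931 to 2011 CPM in wild type and to 2131 to 2206 CPM in mutant libraries, without overlap. As a share of all counts it held 0.166% to 0.188% and 0.235% to 0.24%, also without overlap. Of the 55 genes, 9 did not overlap, beside 20.6% of all tested genes. With an unadjusted p of 0.05 there were 5 of 55, beside 14.2% of all tested genes, and DESeq2 called 3 higher and 1 lower, beside 4.99% of all genes. The GTPase gene rap1b, which in mammals switches integrins on, measured 174, 161 and 184 CPM in wild type and 239, 263 and 244 CPM in mutant libraries, without overlap (log2 fold change 0.52, SE 0.13, adjusted p = 0.105 in edgeR and 0.0049 in DESeq2). ACTN1, an actin cross-linker of adhesion sites, measured 36.5, 25.7 and 25.7 CPM in wild type and 11.7, 16.9 and 8.5 CPM in mutant libraries (log2 fold change −1.25, SE 0.32, adjusted p = 0.113 in edgeR and 0.0148 in DESeq2). The adhesion site protein genes ZYX and lims1 had log2 fold changes of 0.61 (SE 0.18) and 0.64 (SE 0.19), with adjusted p of 0.163 and 0.174 in edgeR and of 0.0373 and 0.0424 in DESeq2.

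The direct activators of integrin tails did not pass either test. Talin, encoded by TLN1, measured 188 ± 19.4 CPM in wild type against 204 ± 37.2 CPM in mutant libraries (log2 fold change 0.12, adjusted p = 0.839). The leukocyte kindlin gene FERMT3 (ENSDARG00000030938) measured 236 ± 53.7 CPM and 262 ± 33.4 CPM (log2 fold change 0.15, adjusted p = 0.802). These genes were named after their values were seen.

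Of 39 tested genes of integrin ligands, none passed over all genes tested. Among them 9 had a positive and 30 a negative sign, beside 52.1% negative among all tested genes. The median log2 fold change was −0.25, against −0.03 for all tested genes. Total count scaling moved the median of all genes by 0.27, to 0.24, and that of the ligand genes under it was not computed. The list of 51 genes summed to 1327 to 1558 CPM in wild type and to 1081 to 1250 CPM in mutant libraries. As a share of all counts, heat shock genes included, it held 0.126% to 0.144% and 0.116% to 0.138%, which overlapped. At an unadjusted p of 0.05, 5 ligand genes were lower and none higher, beside 7.17% lower and 7.04% higher of all tested genes. DESeq2 called 2 lower, beside 4.99% of all genes called in either direction. The icam3 gene, whose human counterpart is a ligand of leukocyte integrins, measured 143, 178 and 115 CPM in wild type and 96.9, 75.4 and 84.7 CPM in mutant libraries, without overlap (log2 fold change −0.77, SE 0.20, adjusted p = 0.114 in edgeR and 0.0142 in DESeq2). COL2A1 (ENSDARG00000069093), a collagen of cartilage and notochord sheath, measured 47.5, 81 and 131 CPM in wild type and 37.9, 33.9 and 38.6 CPM in mutant libraries (log2 fold change −1.23, SE 0.33, adjusted p = 0.129 in edgeR and 0.00931 in DESeq2). A further gene named COL2A1, ENSDARG00000011407, averaged 53.3 CPM in wild type against 51.1 CPM in mutant libraries (log2 fold change −0.06). The separation of icam3 depended on TMM: scaled by total count, its mutant library 1 was just above wild type library 3. The basement membrane collagen COL4A1 and the matrix protein gene TNC (ENSDARG00000078362) had log2 fold changes of −0.79 (SE 0.24, adjusted p = 0.182) and −1.28 (SE 0.46, adjusted p = 0.248). The other gene named TNC, ENSDARG00000021948, averaged 3.45 CPM in wild type against 7.05 CPM in mutant libraries (2.01-fold, adjusted p = 0.562). COL2A1 and COL4A1 are collagens that other cells than macrophages are known to make, and the part of such cells in these values was not tested.

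The precision of the comparison differed among the classes. For 6 of 28 members the 95% interval lay within 2-fold either way, namely itgae.2, itgb2, itgam.1, ITGAV, ITGA5 and ITGB1 ENSDARG00000104484, beside 25.6% of all tested genes. The intervals of the other 22 reached a 2-fold difference or more in at least 1 direction. The median SE of the log2 fold change was 0.27 for leukocyte, 0.65 for matrix-binding and 0.45 for epithelial genes, against 0.46 for all tested genes.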

How the data were processed

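Sample titles gave the genotype and the replicate number. The deposited values are raw counts of reads for each Ensembl gene, not normalized by the authors. Per the labels' protocols, cDNA was amplified with a low-input kit and reads were aligned to GRCz10, with Bowtie and TopHat named in the submitters' processing notes. Not given in the sources used here are the counting tool and its treatment of strand and of reads matching several copies. Amplification without molecular identifiers adds noise that counts cannot separate from biology.

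Symbols came from a name table that covered 26121 of 31962 IDs. The test used edgeR 4.0.16 under R 4.3.3: filterByExpr (minimum count 10, minimum total 15), TMM, and a two-sided quasi-likelihood test for genotype without covariates, adjusted by Benjamini-Hochberg over 16499 genes at 0.05. Intervals are 95% intervals from the quasi-likelihood standard error. DESeq2 1.42.0 was an alternative. The fit was tested on simulated data. A list symbol took the genes of that name, or else those differing by a copy letter or number, and was left out where it named over 3 IDs. All tested members were named. Full values went to non-overlapping members, to those called by either tool, to the 8 with most reads and to the lowest p of each class. In the pathway lists the 4 with the lowest p were named, with values per library for rap1b, ACTN1, icam3 and COL2A1 only. Members and lists were chosen with earlier results of these data known. Where nothing shows separate sorting days, p-values measure the spread between these pools. No transcript lengths or sequences were used here, so the order of members per length was not computed. Replicates of a genotype all differed beyond sampling noise (lowest chi-square per gene 18.3).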

Additional observations from a re-analysis of the deposited data

How the results depend on the processing

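Over 14 alternatives, 17 of 28 tested members kept their sign in every alternative that gave a value, and the only call among members was itgae.1 with DESeq2 (1 lower, −0.70, adjusted p = 0.0342). DESeq2 also called 438 genes higher and 510 lower over all genes, 3 adaptors higher and 1 lower, and 2 ligands lower. Total count scaling gave 217 genes higher and 1 adaptor higher, and moved the mean summed level of leukocyte genes in the mutant to 666 CPM from 610 and of epithelial genes in wild type to 66.9 CPM from 73.5. A minimum count of 50 gave 140 genes higher, 293 lower and 2 ligands lower. With any 1 library left out, 3 to 11 genes were higher and 43 to 98 lower, against 51 and 146 with all libraries, and no member was called. The fewest calls came without wild type replicate 3. With the replicate number as a block, 13 genes were higher and 84 lower and no member was called. Same-numbered libraries did not deviate together (correlations −0.03, 0.00 and −0.03), and no library correlated best with the one of its own number.

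The sign turned for 11 members, none of them called under any alternative, and the cause was not tested. With DESeq2, ITGA1 was at 0.00101. By total count, which raised the median of all genes by 0.27, itgam.1 was at 0.059, ITGAV at 0.0051, ITGA5 at 0.041, ITGA3 at 0.16 and ITGA1 at 0.28. With the replicate block, ITGA3 was at 0.51, ITGA11 at 0.40, ITGA6 at −0.60 and ITGA1 at 0.033. With each library left out in turn, ITGA1 ranged from −0.37 to 0.20, ITGA3 from −0.71 to 0.74, itga3a from −0.14 to 0.74, ITGA11 from −1.60 to 3.96, ITGA6 from −1.84 to 0.47, itga6b from −0.30 to 0.75, itgam.2 from −0.69 to 0.0073 and ITGBL1 from −0.16 to 0.99. The signs of itga6b and ITGBL1 turned without mutant replicate 3, where ITGA6 was lowest, and those of ITGA11 and itgam.2 without wild type replicate 3. The log2 ratio of itgam.2 to itgam.1 ranged from −0.28 to 0.26 and that of ITGAV to ITGA5 from −0.13 to 0.065, turning without wild type replicate 3. Adding up copies of a name and the ratios were chosen after seeing the data. The order per length was not run.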
